A study of Mus musculus with 6 samples.

Results

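Transcripts of 3 linked pathways of sugar metabolism, glycolysis, the pentose phosphate pathway and glycogen turnover, were examined in the dorsolateral prostate of TRAMP mice given OSU-CG5 or vehicle. The list held 39 genes chosen by name for their place in these pathways. The rule for them did not use the measured values, but earlier results of these data were known when the list was made. Of these, 35 had a probe set annotated to that symbol alone (22 of glycolysis, 6 of the pentose phosphate pathway and 7 of glycogen turnover), out of 18194 genes on the array. Gpi1, Eno1, Pfkfb1 and G6pdx were not analysed here. Gapdh was read only by the array's control probe sets and is described apart, which left 34 genes in the test.

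Both groups were intact males of the genotype (C57BL/6 TRAMP x FvB) F1. TRAMP mice carry the SV40 early genes behind the probasin promoter, which is active in prostate epithelium, so the vehicle mice carry the transgene as well and no mouse without it was compared. The first group received the coded compound OSU-CG5 at 100 mg/kg per day by gavage for 4 weeks, and the second received vehicle. Treatment ran from 6 to 10 weeks of age, and the dorsal and lateral lobes were collected 2 to 4 h after dosing ended. Each group had 3 mice, with 1 Affymetrix array to a mouse. OSU-CG5 belongs to compounds developed to mimic energy restriction in cells, and the comparison asks how transcripts of glucose use stood after treatment.

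Glycolysis splits glucose into pyruvate, which lactate dehydrogenase can turn into lactate for export. The pentose phosphate pathway branches off at glucose 6-phosphate and supplies NADPH and ribose, and glycogen is the cell's store of glucose. Several steps are run by isoenzymes made from separate genes, of which some are typical of muscle, brain or liver. The normal prostate is known for secreting citrate, and many tumours are known for high glycolytic flux.

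The arrays carried dorsolateral epithelium: Tgm4, a secreted transglutaminase, read 13.8 to 14.0 on the log2 scale on every array, and Pbsn, the probasin gene itself, 13.3 to 13.9. All values below are on this log2 scale, where a difference of 1 is a doubling. Array medians over 45037 probe sets lay between 5.30 and 5.38. Vehicle replicate 2 stood apart, with correlations of 0.966 to 0.981 with the other arrays, against 0.987 to 0.995 for every other pair. Its 6 seminal vesicle markers summed to 2198 linear units, above the 79.2 to 205.8 of the OSU-CG5 arrays. Their mean log2 value was 3.90, 7.91 and 5.08 in vehicle, against 3.56 to 4.55 with OSU-CG5, so vehicle replicate 3 was also above the OSU-CG5 arrays. Vehicle replicate 2 was also the highest of the 6 arrays for 24 of the 34 genes and the lowest for 2. Without it the log2 difference of 22 of the 34 changed sign or moved by over 1.5 times, against 9 to 18 for any other single array left out.

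The transcripts of these pathways differed little between OSU-CG5 and vehicle mice, and no gene passed the adjusted test. The largest difference was that of Aldoa, which encodes the main glycolytic aldolase, and the next was that of Pygl, the liver-type glycogen phosphorylase, both lower with OSU-CG5 on every array. For the 34 genes the log2 differences ran from -0.57 to 0.28, and 27 lay within 0.3 of 0. The 95% intervals had a median half-width of 0.37 and included 0 for 32 genes, so differences of that size could not be resolved for most of them. limma with Benjamini-Hochberg adjustment over all probe sets called 0 of the 34, where 0.00% of all 45037 probe sets were called (smallest adjusted p = 0.164 among the 34, 0.112 among all). Of the 34, 2 were lower with an unadjusted p under 0.05 (5.88%), against 8.43% of all 18193 genes by 1 probe set each, and 0 were higher, against 5.40% of all genes. Without vehicle replicate 3 the lower count was 5, and without vehicle replicate 2 it was 2 lower and 1 higher. The shares of all genes were not counted in these fits, so the 8.43% and 5.40% are no background for them.

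The groups did not overlap for 5 of the 34 genes, all lower with OSU-CG5. That is 14.7% of them, beside 14.2% of all genes, so the share was close to the background. None was higher without overlap, against 8.10% of all genes. Leaving out an array makes separation easier by construction. The lower count was then 9 without OSU-CG5 replicate 1 or without vehicle replicate 3. Higher were 3 genes when vehicle replicate 2 was dropped, 2 when OSU-CG5 replicate 3 was and 1 when vehicle replicate 3 was. The shares of all genes were not counted with an array left out, so these counts have no matching background.

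By pathway, the 21 tested glycolysis genes had a median log2 difference of -0.12, with 14 below 0, of which 1 had an unadjusted p under 0.05. For the 6 pentose phosphate genes the median was -0.12, and 4 were below 0, with 0 at that threshold. Of the 7 glycogen genes 5 were below 0, their median was -0.070 and 1 was at that threshold. Over all 18193 genes the median was -0.086, and 65.7% were below 0, so the 3 medians lay near that of the whole array. Without vehicle replicate 2 the medians were 0.017 for glycolysis, -0.074 for the pentose phosphate pathway and 0.066 for glycogen, against -0.054 for all genes.

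**Figure D1:**
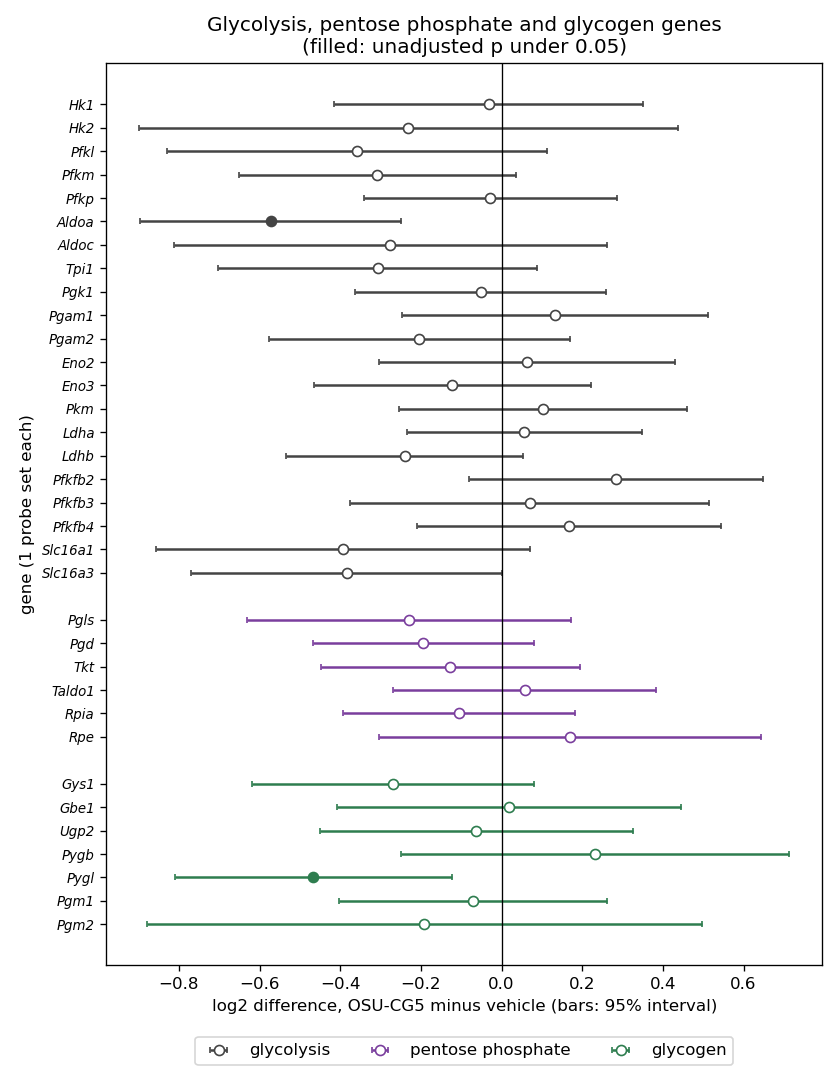
Log2 difference (OSU-CG5 minus vehicle, x axis) with its 95% interval for each of the 34 tested genes (y axis), in pathway order and coloured by pathway. Filled points mark an unadjusted p under 0.05, which only Aldoa and Pygl had, and the other 32 intervals include 0.

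Aldolase splits fructose 1,6-bisphosphate into the triose phosphates. Aldoa, the ubiquitous form and the one of muscle, read 9.23, 9.31 and 9.07 with OSU-CG5, against 9.64, 10.01 and 9.67 in vehicle. The highest OSU-CG5 array was thus below the lowest vehicle array. The log2 difference was -0.57 (SE 0.14, n = 3 per group; limma unadjusted p = 0.00334, adjusted p = 0.164), a level 0.67 times that of vehicle. Aldoa had 4 further probe sets, and in each the groups did not overlap either, with differences of -0.43, -0.51, -0.53 and -0.54. These 5 probe sets read 1 transcript family in the same RNA and are no independent replicates, and all 5 carry the suffix of probe sets that can bind related sequences. Without vehicle replicate 2 the difference was -0.45, and over the other single arrays left out the adjusted p stayed between 0.090 and 0.457. Aldoc, the brain-type aldolase, read 6.24, 6.29 and 6.08 with OSU-CG5 and 6.10, 7.07 and 6.28 in vehicle. Its difference of -0.28 (SE 0.23) rested on vehicle replicate 2, without which it was 0.017.

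**Figure D2:**
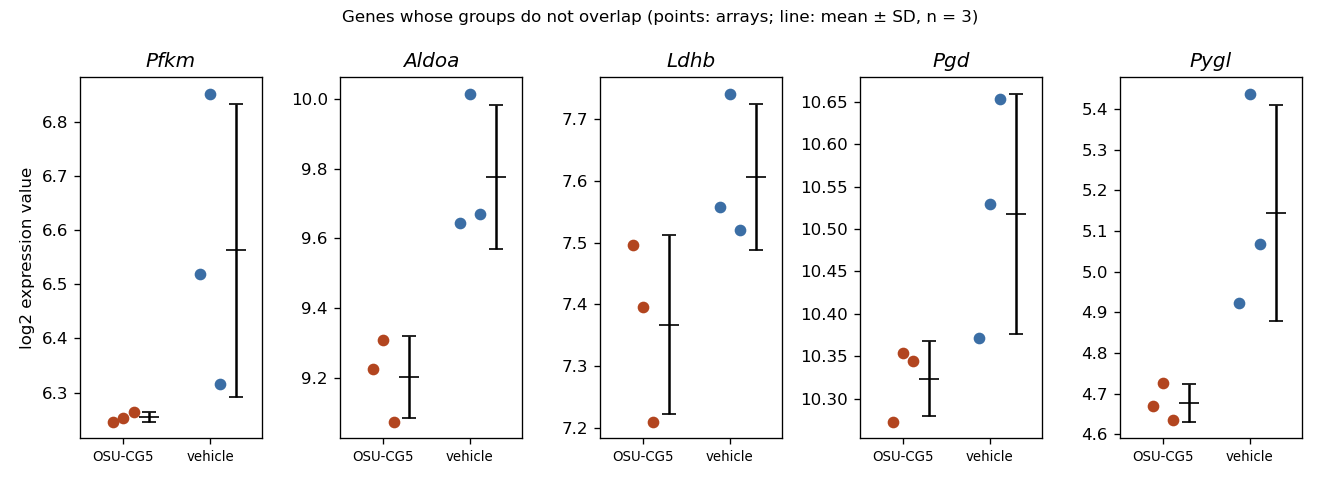
Log2 expression values (y axis, a separate scale for each gene) of the 5 genes whose groups do not overlap, with OSU-CG5 mice left and vehicle mice right, 1 point per array and the mean with its SD (n = 3). For Aldoa the gap between the groups is 0.34, and for Ldhb, Pfkm and Pgd the nearest arrays of the 2 groups almost touch.

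Among the enzymes that commit glucose to glycolysis the spread between mice was wide. Hk1, the housekeeping hexokinase, read 8.72, 9.03 and 9.10 with OSU-CG5 and 8.73, 9.25 and 8.96 in vehicle, a difference of -0.032 (95% interval -0.42 to 0.35). Hk2, the regulated hexokinase often raised in tumours, read 7.68, 6.87 and 7.06 with OSU-CG5 and 7.48, 7.95 and 6.88 in vehicle. Within both groups the Hk2 arrays lay further apart (SD 0.42 with OSU-CG5 and 0.54 in vehicle) than the group means, and the interval of the difference ran from -0.90 to 0.44. Neither hexokinase differed beyond the spread between mice.

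Phosphofructokinase, the main control point of glycolysis, is built from liver, muscle and platelet subunits. Pfkm, the muscle subunit, read 6.25, 6.25 and 6.26 with OSU-CG5, against 6.52, 6.85 and 6.32 in vehicle. The groups did not overlap, but vehicle replicate 3 came within 0.053 of the OSU-CG5 arrays, and the difference of -0.31 (SE 0.15; limma adjusted p = 0.346) was -0.16 without vehicle replicate 2. Pfkl, the liver subunit, read 5.68, 5.85 and 5.98 with OSU-CG5 and 5.76, 6.59 and 6.23 in vehicle, a difference of -0.36 (SE 0.21) with overlapping groups, which was -0.16 without vehicle replicate 2. Its other probe sets were at -0.28 and 0.059 and so disagreed in sign. Pfkp, the platelet subunit, read 6.53, 6.23 and 6.30 with OSU-CG5 and 6.32, 6.56 and 6.27 in vehicle, a difference of -0.028 (SE 0.14).

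The Pfkfb enzymes make and break fructose 2,6-bisphosphate, which activates phosphofructokinase. Pfkfb2, the heart-type form, had the largest positive difference of the 34 genes. It read 7.73, 7.29 and 7.24 with OSU-CG5 and 7.07, 7.06 and 7.28 in vehicle, a difference of 0.28 (SE 0.16; limma adjusted p = 0.402). OSU-CG5 replicate 1 was the high array, without which the difference was 0.13, and the groups overlapped, and the gene's 3 dimmer probe sets differed by -0.049 to 0.097. Pfkfb3, the form with high kinase activity, read 5.13, 5.14 and 5.08 with OSU-CG5 and 5.18, 5.38 and 4.59 in vehicle. The vehicle arrays lay on both sides of the OSU-CG5 arrays, and the difference was 0.070 (SE 0.19), with the other probe set at -0.20. Pfkfb4, a form known from testis, read 6.85, 6.80 and 6.44 with OSU-CG5 and 6.27, 6.60 and 6.71 in vehicle, a difference of 0.17 (SE 0.16) between overlapping groups.

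The middle steps showed small differences. Tpi1, the triose phosphate isomerase, read 8.88, 8.37 and 8.40 with OSU-CG5 and 8.66, 9.05 and 8.86 in vehicle. OSU-CG5 replicate 1 lay among the vehicle arrays, and the difference was -0.31 (SE 0.17). Pgk1, which makes ATP at phosphoglycerate kinase, read 12.98, 13.10 and 12.89 with OSU-CG5 and 13.14, 13.16 and 12.82 in vehicle by its brightest probe set, a difference of -0.052. Its probe sets disagreed: another read 11.58, 11.69 and 11.53 with OSU-CG5 against 11.30, 11.35 and 11.23 in vehicle, without overlap and in the opposite direction, a difference of 0.31 (SE 0.11; limma unadjusted p = 0.0232, adjusted p = 0.242). No direction can be given for Pgk1 from these readings.

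Gapdh, which acts between Tpi1 and Pgk1 and is a common loading reference, was read by control probe sets placed along the transcript. Toward the 3′ end it read 10.08, 9.96 and 10.04 with OSU-CG5 and 9.77, 10.21 and 10.21 in vehicle, a difference of -0.040 (SE 0.15), and the middle probe set differed by -0.13. Toward the 5′ end it read 7.36, 6.93 and 7.10 with OSU-CG5 and 7.62, 7.95 and 7.45 in vehicle, without overlap, a difference of -0.55 (SE 0.17; limma adjusted p = 0.205 with the control probe sets in the fit). The 3′ minus 5′ difference, a sign of RNA integrity, was 2.72, 3.03 and 2.94 with OSU-CG5 and 2.15, 2.26 and 2.76 in vehicle. It was higher in every OSU-CG5 mouse but 1 than in any vehicle mouse, and its part in the other differences was not tested.

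The later steps lead to pyruvate and lactate. Pgam1, the widespread phosphoglycerate mutase, read 9.89, 9.82 and 9.88 with OSU-CG5 and 9.45, 10.08 and 9.67 in vehicle. That is a difference of 0.13 (SE 0.17), which was 0.31 with an unadjusted p of 0.0403 (limma; adjusted p = 0.303) without vehicle replicate 2. Pgam2, the muscle form, read 4.15, 4.64 and 4.35 with OSU-CG5 and 4.54, 4.80 and 4.42 in vehicle, a difference of -0.20 (SE 0.16) with overlapping groups, which was -0.099 without vehicle replicate 2 and -0.088 without OSU-CG5 replicate 1.

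The enolases make phosphoenolpyruvate. Eno3, the muscle form, read 6.00, 5.52 and 5.94 with OSU-CG5 and 6.02, 5.92 and 5.89 in vehicle, a difference of -0.12 (SE 0.15). Eno2, the form of neurons, read 3.52, 3.95 and 3.76 with OSU-CG5 and 3.91, 3.64 and 3.49 in vehicle, a difference of 0.063 (SE 0.16). The groups of both genes overlapped. Pkm, the pyruvate kinase of most tissues and tumours, read 8.52, 8.33 and 8.44 with OSU-CG5 and 8.15, 8.64 and 8.19 in vehicle, a difference of 0.10 (95% interval -0.25 to 0.46). The single probe set does not separate the splice forms of Pkm.

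Lactate dehydrogenase is a tetramer of A and B subunits, of which the A form is known for making lactate. Ldha read 9.81, 9.71 and 9.75 with OSU-CG5 and 9.62, 9.90 and 9.58 in vehicle, a difference of 0.056 (95% interval -0.24 to 0.35). Ldhb read 7.50, 7.40 and 7.21 with OSU-CG5 and 7.56, 7.74 and 7.52 in vehicle. The Ldhb groups touched without overlapping, with a difference of -0.24 (SE 0.13; limma adjusted p = 0.383), and its 3 other probe sets differed by -0.48 to -0.14, of which 1 also had no overlap. Those at -0.48 and -0.42 had limma unadjusted p = 0.0346 and 0.0285 (adjusted p = 0.272 and 0.257). Slc16a1 and Slc16a3 are monocarboxylate transporters that carry lactate. Slc16a1 read 3.28, 2.94 and 2.88 with OSU-CG5 and 3.18, 3.86 and 3.25 in vehicle, a difference of -0.39 (SE 0.20), which was -0.18 without vehicle replicate 2. Slc16a3 read 3.96, 4.35 and 3.88 with OSU-CG5 and 4.40, 4.68 and 4.26 in vehicle, a difference of -0.38 (SE 0.17; limma adjusted p = 0.306). Both read low, and for each 1 OSU-CG5 array lay above the lowest vehicle array.

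In the pentose phosphate pathway no gene came near an unadjusted p of 0.05 by its brightest probe set. Pgd, the second NADPH-making dehydrogenase, read 10.27, 10.35 and 10.34 with OSU-CG5, against 10.37, 10.53 and 10.65 in vehicle. The groups did not overlap by a margin of 0.017, and the difference was -0.19 (SE 0.12; limma adjusted p = 0.442), or -0.13 without vehicle replicate 3. All 4 of its probe sets had negative differences, from -0.27 to -0.088. The one at -0.27 also had no overlap (limma unadjusted p = 0.0589). Pgls, the lactonase between the dehydrogenases, read 7.52, 7.10 and 7.15 with OSU-CG5 and 7.29, 7.79 and 7.37 in vehicle, a difference of -0.23 (SE 0.18) with OSU-CG5 replicate 1 among the vehicle arrays. It was -0.36 without that array and -0.075 without vehicle replicate 2.

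The non-oxidative branch turns pentoses back into glycolytic sugars. Tkt, the transketolase, read 11.51, 11.53 and 11.48 with OSU-CG5 and 11.37, 11.71 and 11.82 in vehicle, a difference of -0.13 (SE 0.14). Its other probe sets differed by -0.27, without overlap (limma unadjusted p = 0.0672), and by 0.054. Taldo1, the transaldolase, differed by 0.057 (SE 0.14) and Rpia, the ribose 5-phosphate isomerase, by -0.11 (SE 0.13). Rpe, the ribulose phosphate epimerase, read 9.28, 9.08 and 8.99 with OSU-CG5 and 9.24, 8.46 and 9.13 in vehicle. Vehicle replicate 2 was the low array, and the difference of 0.17 (SE 0.21) was -0.072 without it.

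Glycogen phosphorylase frees glucose 1-phosphate from glycogen. Pygl, the liver form, read 4.67, 4.73 and 4.63 with OSU-CG5, against 4.92, 5.44 and 5.07 in vehicle. All vehicle arrays were above all OSU-CG5 arrays, with a difference of -0.47 (SE 0.15; limma unadjusted p = 0.0136, adjusted p = 0.213). It was -0.32 without vehicle replicate 2, and the gene has only this probe set, in the lower part of the array's range. Pygb, the brain form, read 9.81, 10.14 and 10.60 with OSU-CG5 and 9.81, 10.22 and 9.83 in vehicle. Its difference was 0.23 (95% interval -0.25 to 0.71) and 0.026 without OSU-CG5 replicate 3, the high array.

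On the side of synthesis, Gys1, the glycogen synthase outside liver, read 6.60, 6.62 and 6.72 with OSU-CG5 and 6.87, 7.21 and 6.67 in vehicle, a difference of -0.27 (SE 0.15; limma adjusted p = 0.405). Vehicle replicate 3 lay within the OSU-CG5 range, and without vehicle replicate 2 the difference was -0.12. Ugp2, which makes UDP-glucose, differed by -0.062 (SE 0.17), and Gbe1, the branching enzyme, by 0.019 (SE 0.19). Pgm1 and Pgm2 interconvert sugar phosphates. Pgm1, the main phosphoglucomutase, differed by -0.070 (SE 0.14) by its brightest probe set. Its other one read 6.02, 5.99 and 5.63 with OSU-CG5 against 5.63, 5.38 and 5.60 in vehicle, higher and without overlap before rounding. That was a difference of 0.34 (SE 0.15; limma unadjusted p = 0.0446, adjusted p = 0.293), so the probe sets of Pgm1 disagreed. Pgm2 read 6.75, 5.94 and 6.12 with OSU-CG5 and 6.52, 6.99 and 5.87 in vehicle, and as for Hk2 the arrays of each group lay further apart than the group means, which differed by -0.19.

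**Figure D3:**
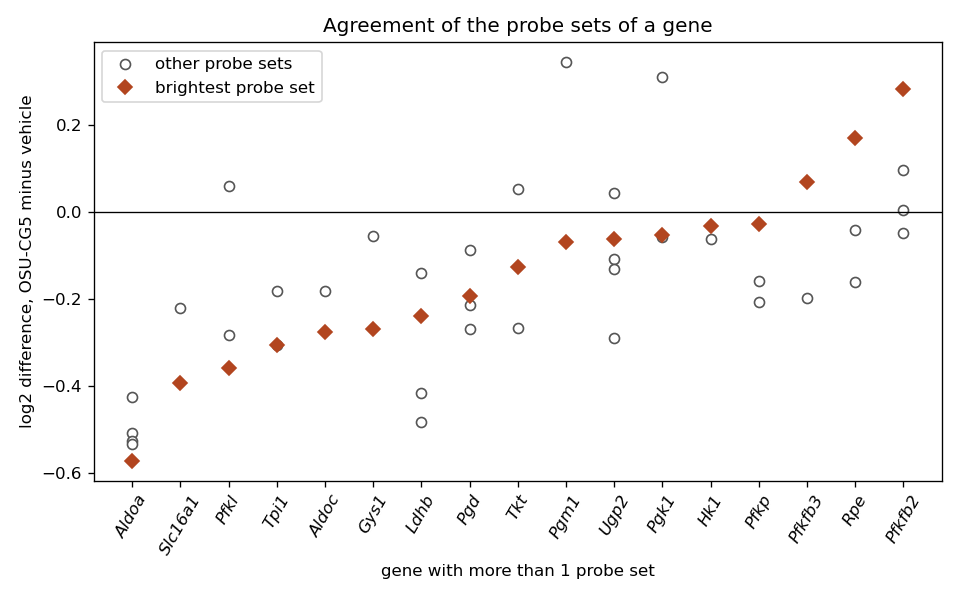
Log2 differences (y axis) of all probe sets of the 17 genes with more than 1 (x axis, ordered by the brightest probe set, drawn as a diamond; open circles are the others). The probe sets of 9 genes all have the same sign, those of Aldoa between -0.57 and -0.43, while those of Pgk1 and Pgm1 span 0.37 and 0.41.

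Over the 17 genes with more than 1 probe set, all probe sets had the same sign for 9. Spread between mice was larger in vehicle for 24 of the 34 genes, with a median SD of 0.15 with OSU-CG5 and 0.23 in vehicle (n = 3 each).

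Markers of several other cell types in the tissue were also lower with OSU-CG5. All 17 skeletal muscle markers had negative differences, with a median of -0.51 and 9 without overlap. Over all genes 65.7% were below 0 and 14.2% were lower without overlap. Several of the 17 read low, such as Myh2 (mean 2.86 in vehicle) and Neb (3.07). They summed to 1037 to 1576 linear units with OSU-CG5 against 1780 to 2313 in vehicle, mostly from Tnnc2 and Acta1. Ckm, the creatine kinase of muscle, read 5.56, 5.88 and 5.70 with OSU-CG5 and 6.10, 6.46 and 6.12 in vehicle. The 9 macrophage markers summed to 1347 to 1799 units with OSU-CG5 and 2027 to 2755 in vehicle. Csf1r was the brightest of them, at a mean of 10.16 in vehicle, and 5 of the 9 were lower without overlap. The 8 endothelial markers summed to 358.1 to 384.9 units with OSU-CG5 and 444.6 to 529.5 in vehicle, and 6 were lower without overlap. Itgam and Pecam1 differed by only -0.082 and -0.022. The highest muscle, macrophage and endothelial sums were all those of vehicle replicate 2. The sums of the 6 measured epithelial markers overlapped, at 44285 to 48475 with OSU-CG5 and 37338 (vehicle replicate 2) to 47168 in vehicle. These sums rest mostly on the bright Tgm4, Pbsn and Msmb, which differed by 0.087, 0.18 and 0.35. The other 3, Krt8, Krt18 and Hoxb13, differed by -0.50, -0.22 and -0.10, so the epithelial list was split in direction. Aldoa and Pfkm are forms that muscle also uses, and the part of these markers in their differences was not tested. In such tissue RNA, fewer cells of a type and less RNA per cell cannot be told apart.

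**Figure D4:**
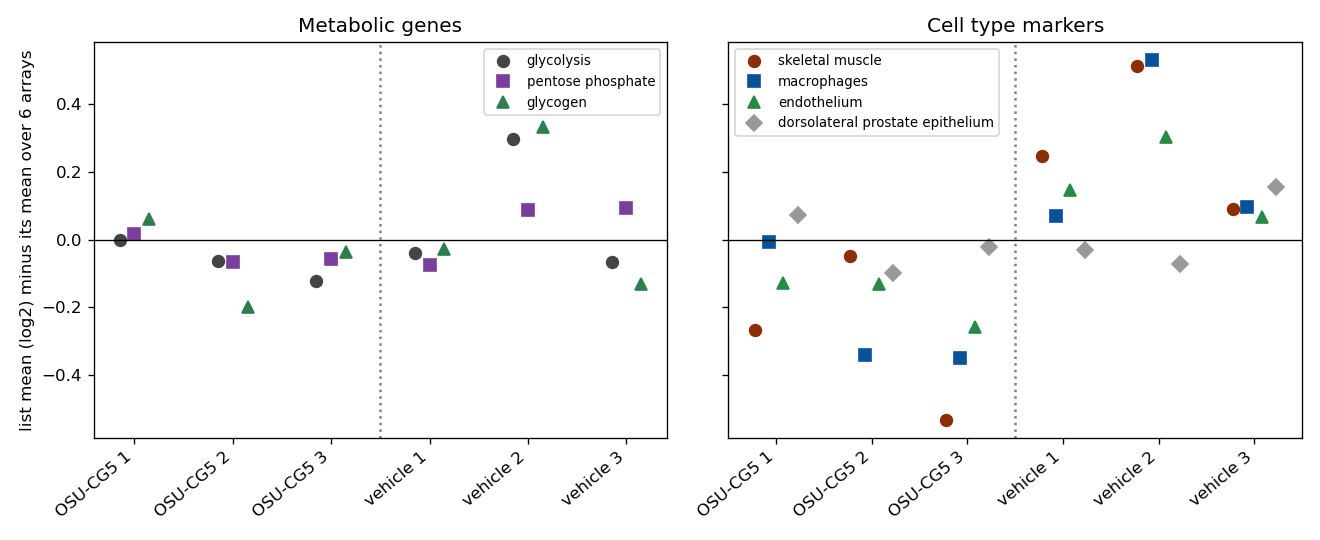
Mean log2 value of each gene list on each array, minus that list's mean over the 6 arrays (y axis), for the 3 metabolic lists (left panel) and 4 marker lists (right panel), with OSU-CG5 arrays left of the dotted line and vehicle arrays right of it. The glycolysis and glycogen means are highest in vehicle replicate 2 and overlap otherwise, while the muscle and endothelial marker means are lower on all OSU-CG5 arrays than on any vehicle array.

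A second list of 57 genes was chosen for their place in the same or linked pathways, also with earlier results of these data known. It had 54 measured genes, of which 0 passed the adjusted limma test. Of these, 4 were lower (7.41%) and 1 was higher (1.85%) with an unadjusted p under 0.05, against 8.43% and 5.40% of all genes. Without overlap, 9 were lower (16.7%) and 1 was higher (1.85%), against 14.2% and 8.10% of all genes, and the median difference was -0.051. Of the 16 further glycolysis genes 5 were lower without overlap (31.2%) and 1 had an unadjusted p under 0.05, Gapdhs, a form known from sperm, which differed by -0.46 (SE 0.15) at readings of 4.17 to 5.03. Gpd1, the glycerol phosphate dehydrogenase, and Hk3, a hexokinase of white blood cells, differed by -0.32 and -0.24 without overlap. Of 9 gluconeogenesis genes 8 were below 0, beside 65.7% of all genes, but their median of -0.041 was nearer 0 than the -0.086 of all genes. Only 1 of the 9 was lower with an unadjusted p under 0.05. That was G6pc3, the widespread glucose 6-phosphatase, at -0.39 (SE 0.16). The 8 further pentose phosphate genes gave 0 in either direction at that threshold and had a median of 0.0025. Of 21 further glycogen genes 15 were below 0, and at that threshold 2 were lower and 1 higher. Gaa, the lysosomal enzyme that degrades glycogen, read 8.37, 8.77 and 8.80 with OSU-CG5 against 9.17, 9.38 and 8.88 in vehicle, a difference of -0.50 (SE 0.17; limma adjusted p = 0.233). Gsk3a, a kinase that inhibits glycogen synthase, differed by -0.36 (SE 0.13). Phka1, the regulatory subunit of muscle phosphorylase kinase, read 7.51, 7.49 and 7.44 with OSU-CG5 against 7.17, 6.99 and 7.25 in vehicle, a difference of 0.34 (SE 0.12; limma adjusted p = 0.231).

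Promoter sequence of Aldoa, Pygl, Pgd and Ldhb, 4 of the 5 genes without overlap, is shown to set these readings beside the known regulators of glycolysis. Hypoxia-inducible factors bind sites that can hold ACGTG, here called the core, and Sp1-like factors bind the GC box GGGCGG. Both were sought on either strand in the 250 bases before each RefSeq transcription start (GRCm38.p6). Only these exact strings were counted, so sites with another base, such as GCGTG, were missed. The core was found for 16 of the 39 genes (41.0%), against 18.5% of 27025 genes, and the GC box for 28 (71.8%), against 35.4%. A gene counted if any of its promoters held the motif, and the 27025 genes were not limited to those on the array. By promoter the core was in 34.5% of 58, against 16.6% of 32851, and the GC box in 55.2%, against 32.7%. The E-box CACGTG, which holds the core and so overlaps it, was found for 5 (12.8%), against 6.86%. In the lines below capitals mark the core and the GC box on either strand. Pygl, Ldhb and Pgd show the 150 bases before a start outside any annotated gene. The 3 starts of Aldoa lie inside its annotated extent, so only 30 bases with both motifs are given. The 4 promoters of Pfkm all overlap annotated genes and are not shown.
Aldoa, chr7:126799359-126799388, minus strand: gctcgagtCACGTcctagcgGGGCGGagga
Pygl, chr12:70227684-70227833, minus strand: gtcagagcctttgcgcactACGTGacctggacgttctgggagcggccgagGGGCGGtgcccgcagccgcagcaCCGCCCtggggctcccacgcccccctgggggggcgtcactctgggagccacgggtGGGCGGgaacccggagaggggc
Pgd, chr4:149166706-149166855, minus strand: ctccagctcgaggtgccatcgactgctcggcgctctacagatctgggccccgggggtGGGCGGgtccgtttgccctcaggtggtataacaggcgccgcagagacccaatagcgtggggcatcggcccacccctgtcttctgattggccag
Ldhb, chr6:142507958-142508107, minus strand: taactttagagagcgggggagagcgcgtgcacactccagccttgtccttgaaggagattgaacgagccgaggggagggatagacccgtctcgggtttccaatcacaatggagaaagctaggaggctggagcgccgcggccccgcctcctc

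Aldoa, Pfkm and Pygl held the core, as did Hk2, Pgam1, Pgk1, Pkm and Ldha, and the 16 genes with it ran from -0.57 (Aldoa) to 0.28 (Pfkfb2). Pgd and Ldhb had no match to the exact string ACGTG in their windows. Both printed stretches hold GCGTG, which was not sought, so a lack of such sites cannot be read from this. Promoters with the core thus belonged to genes with differences on both sides of 0. A match is a string of letters and not a tested binding site.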

How the data were processed

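The authors deposited log2 expression values per probe set, made with RMA per the submitters' processing notes, with the software not given in the sources used here. RMA brings arrays to a shared distribution, so a broad shift in 1 direction is partly removed. Groups came from the tissue source label, and the free text of some treated samples carries another number after the compound's prefix. Replicate numbers only name the 3 mice of a group. Probe sets were named from the platform annotation, and all 35 symbols found matched a RefSeq table (GRCm38.p6) by gene number. Of 45037 probe sets besides 64 controls, 34945 had a single symbol, 932 several and 9160 none. For each gene the brightest probe set, by its mean over all 6 arrays, was used. No batch label was used. Precision is limited by the number of arrays.

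The test was lmFit and eBayes of limma 3.58.1 in R 4.3.3 on the deposited log2 values, OSU-CG5 minus vehicle, without a filter, adjusted by Benjamini-Hochberg over all probe sets at 0.05. SE and 95% intervals are moderated, and SD is that of a group's 3 arrays. The p-values set the difference between the groups against the spread between mice, moderated over all probe sets. The procedure was tested on simulated data with independent noise and planted differences larger than that of Aldoa. Smaller differences, and an array that stands apart, were not simulated. The genes and lists were chosen with earlier results of these data known. Genes described are those without overlap, those of smallest p in each pathway and the isoenzymes, and the rest follow by their differences. Control probe sets, the only ones of Gapdh, were left out of the test, and a fit with them was added after seeing the data. Cell type lists of basal epithelium, smooth muscle, fibroblasts, adipocytes, neuroendocrine cells, Schwann cells, red blood cells and lymphocytes had medians of -0.20, -0.26, -0.26, -0.034, -0.18, -0.29, -0.13 and -0.24.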

Additional observations from a re-analysis of the deposited data

How the results depend on the processing

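With 14 alternatives, 0 of the tested genes passed the adjusted threshold in any, and 17 of 34 kept their direction in all that measured them, Aldoa (-0.64 to -0.45) and Pygl (-0.58 to -0.32) among them. Over all probe sets the adjusted count was 822 with array weights and 0 to 885 over single arrays left out (400 without vehicle replicate 2, 885 without vehicle replicate 3), against 0 with all arrays. Most of these calls were higher with OSU-CG5: 762 of the 822, 379 of the 400 and 851 of the 885. At an unadjusted p under 0.05 the lower count was 5 with the mean of a gene's probe sets, 1 with a minimum mean of log2 6 (8 dim genes not tested) and 2 to 5 over arrays left out. The higher count was 1 with the brightest probe set lacking the suffixes x and s (Pgk1) and 0 to 1 over arrays left out. Aldoa has no probe set without such a suffix and kept the same one under this rule. The suffix rule was therefore no check on Aldoa, which its counts still include. Without overlap, 3 were lower with arrays centred on the median, and 3 lower and 1 higher with that suffix rule, and counts were 5 to 9 lower and 0 to 3 higher over arrays left out. Medians over arrays left out were -0.16 to 0.017 for glycolysis, -0.21 to -0.074 for the pentose phosphate pathway, which was -0.017 with the suffix rule, and -0.24 to 0.066 for glycogen. The cause of these changes was not tested. For the alternatives the shares of all genes at an unadjusted p under 0.05 or without overlap were not counted. The counts of tested genes under them thus have no matching background.

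Signs changed for Hk1 (0.14), Rpe (-0.033) and Pgm1 (0.00040) with array weights, for Pgk1 (0.31) and Tkt (0.054) with the suffix rule, for Pfkp (0.011) with cyclic loess, and for Pgk1 (0.067), Pfkfb3 (-0.064), Rpe (-0.011) and Pgm1 (0.14) with the mean of the probe sets. Over arrays left out the differences ran from -0.16 to 0.10 for Hk1, -0.51 to 0.025 for Hk2, -0.12 to 0.062 for Pfkp, -0.47 to 0.017 for Aldoc, -0.16 to 0.0071 for Pgk1, -0.011 to 0.31 for Pgam1, -0.042 to 0.18 for Eno2, -0.21 to 0.026 for Eno3 and -0.0045 to 0.16 for Ldha. They ran from -0.16 to 0.23 for Pfkfb3, -0.065 to 0.16 for Taldo1, -0.072 to 0.32 for Rpe, -0.16 to 0.16 for Gbe1, -0.24 to 0.057 for Ugp2, -0.15 to 0.066 for Pgm1 and -0.49 to 0.073 for Pgm2. No paired analysis was possible because the labels pair no mice.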
